A study of Mus musculus with 3 samples.

Results

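Zbtb20, Nfia, Nfib, Nfic and Nfix, 5 genes for transcription factors, were followed by their symbols through the 31055 genes of the raw count tables, by a rule that names them; the genes were proposed with earlier results of these data known. Their unique molecular identifiers (UMIs, each 1 captured RNA molecule) were counted in 31703 sorted nuclei of the olfactory bulb (OB), of which 7504 belonged to the projection neuron clusters. The nuclei came from 3 adult male C57Bl/6 mice without a further genotype, 1 library per mouse, all treated alike and with no untreated animal in the count tables. Each mouse had received retroAAV-CAG-H2B-GFP, a virus that enters through axon endings, in the piriform cortex (PCx) and the anterior olfactory nucleus (AON), which are cortical targets of the OB, and GFP-positive bulb nuclei were then sorted. The CAG promoter is active in most cell types, and the sorted nuclei also held inhibitory neurons, glia and vascular cells, so that being sorted does not by itself mark a projection neuron.

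Nuclear factor I (NFI) proteins, encoded by Nfia, Nfib, Nfic and Nfix, share a DNA-binding domain and bind as homo- or heterodimers to a palindrome of TTGGC and GCCAA arms. Nfia, Nfib and Nfix are known for their roles in neural stem cells and in the onset of gliogenesis. Zbtb20 is a BTB-domain zinc finger repressor known from hippocampal pyramidal neurons and from astrocyte development. In the adult OB, mitral and tufted cells are the glutamatergic projection neurons, and granule and periglomerular cells are GABAergic interneurons.

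The 3 libraries held 4753 to 21105 nuclei with a median of 7940 to 10568 UMIs per nucleus, and 82 barcodes were shared by libraries of different mice. The authors' 22 clusters and 10 projection neuron subclusters carry no cell type in the deposited table, and were named here from marker genes as types that look "like" a published type. The 7 named types were the mitral types M1, M2 and M3 and the tufted types T1, ET1, ET2 and ET4. Subclusters 2 and 8 stayed unnamed, and subcluster 9 was periglomerular-like. Clusters 2, 4, 5, 13 and 14 were projection-neuron-like, 10 clusters with 21236 nuclei were inhibitory-neuron-like, and clusters 9, 11, 16, 18, 19 and 20 were astrocyte-, ensheathing-glia-, oligodendrocyte-, vascular-, oligodendrocyte-precursor- and microglia-like. All 6 astrocyte, oligodendrocyte, precursor, microglia and vascular markers were carried by their cluster, and 5 of the 6 ensheathing glia markers. Clusters 7 and 8 had the periglomerular markers Calb2 and Calb1, and no inhibitory marker, among their 10 leading genes, and were kept as inhibitory because periglomerular neurons are GABAergic and both carried all 6 inhibitory neuron markers. Of the 6 immature neuron markers, cluster 7 carried 6, cluster 1 carried 5, clusters 0, 8 and 15 carried 4, clusters 6, 10 and 12 carried 3 and clusters 3 and 17 carried 2. Levels (CPM) are the UMIs of a gene per 1000000 UMIs, summed over the nuclei of a group in 1 mouse and given as mean ± SD over the 3 mice.

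The genes lie on 4 chromosomes of GRCm38 (GENCODE M21). Zbtb20 (ENSMUSG00000022708) spans chr16:42875881-43642602 on the plus strand with 21 annotated transcripts. Nfia (ENSMUSG00000028565) spans chr4:97772734-98118874 on the plus strand, and Nfib (ENSMUSG00000008575) chr4:82290173-82705750 on the minus strand. Nfic (ENSMUSG00000055053) spans chr10:81396186-81455635 and Nfix (ENSMUSG00000001911) chr8:84699876-84800344, both on the minus strand. The tables count sense reads only, so that antisense neighbours are kept apart, but 5 annotated genes within Zbtb20, 1 within Nfib and 1 within Nfic lie on the same strand and were not separable by strand. The annotated transcripts of the 5 genes were nearly free of shared sequence, with 0 words of 31 bases shared for Zbtb20, Nfia and Nfib and 2 each for Nfic and Nfix (0.0300% and 0.0270% of their words). Reads of 1 NFI gene could therefore rarely be taken for another.

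Sequence upstream of annotated starts is shown for Zbtb20 and Nfix, because these 2 genes had their highest projection neuron level in the same type. The windows are the 250 bases before a RefSeq start (GRCm38.p6), all inside the annotated span of their gene and free of annotated exons, and capitals mark the NFI arm TTGGC or its reverse GCCAA, searched on both strands. The Zbtb20 window lies at chr16:43247034-43247283 on the plus strand, and the Nfix windows at chr8:84775829-84776078 and chr8:84772876-84773125 on the minus strand.
Zbtb20: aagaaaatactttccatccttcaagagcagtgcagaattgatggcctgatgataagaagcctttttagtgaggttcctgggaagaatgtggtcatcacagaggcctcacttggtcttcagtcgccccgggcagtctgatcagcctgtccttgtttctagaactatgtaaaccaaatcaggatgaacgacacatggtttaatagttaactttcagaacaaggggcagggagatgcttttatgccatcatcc
Nfix first window: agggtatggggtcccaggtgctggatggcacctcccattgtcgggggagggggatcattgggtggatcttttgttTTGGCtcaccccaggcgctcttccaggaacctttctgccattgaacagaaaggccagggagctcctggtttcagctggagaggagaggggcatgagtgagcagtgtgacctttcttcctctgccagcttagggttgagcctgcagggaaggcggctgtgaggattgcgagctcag
Nfix second window: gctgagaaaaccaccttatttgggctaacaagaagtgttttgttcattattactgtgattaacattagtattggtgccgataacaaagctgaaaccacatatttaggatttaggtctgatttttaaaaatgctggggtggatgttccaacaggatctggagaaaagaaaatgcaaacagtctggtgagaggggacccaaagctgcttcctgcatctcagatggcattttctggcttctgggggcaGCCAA
The Zbtb20 window held 0 arms, and each of these Nfix windows held 1, at 175 and 5 bases before the start. These were chosen for their arm, and the other 2 of the 4 Nfix windows in the table held none. Among 32851 windows of this length, 41.5% held at least 1 arm and 12 (0.0365%) held the full palindrome of TTGGC, 5 bases of any kind and GCCAA, which was in none of the windows of Zbtb20, Nfia, Nfic or Nfix. A single arm was thus common in such windows, and a match describes the window and not a site in use.

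Among projection neuron subclusters, Zbtb20 was highest in ET4-like nuclei and lowest in M1-like nuclei, a ratio of 15.3 between the means. ET4-like nuclei, named from markers such as Ly6g6e and Foxo1, had 3883, 3876 and 3461 CPM in mice 1, 2 and 3 (3740.0 ± 242, SD, n = 3). ET1-like nuclei followed with 2340, 2469 and 2289 CPM and T1-like nuclei with 1122, 1309 and 1242 CPM. Each of these steps separated all 3 mice. ET2-like nuclei, although tufted by name, had 414, 362 and 317 CPM, below every other tufted type and close to the mitral types. M3-like nuclei had 418, 690 and 366 CPM, M2-like nuclei 265, 315 and 237 CPM and M1-like nuclei 272, 260 and 200 CPM (244 ± 38.6). The ranges of M3- and ET2-like nuclei overlapped, as did those of M2- and M1-like nuclei. Unnamed subclusters 2 and 8 stood between with means of 1021 and 696 CPM. In all, 5 of the 9 pairs of neighbours in the order overlapped in their range over mice.

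**Figure D1:**
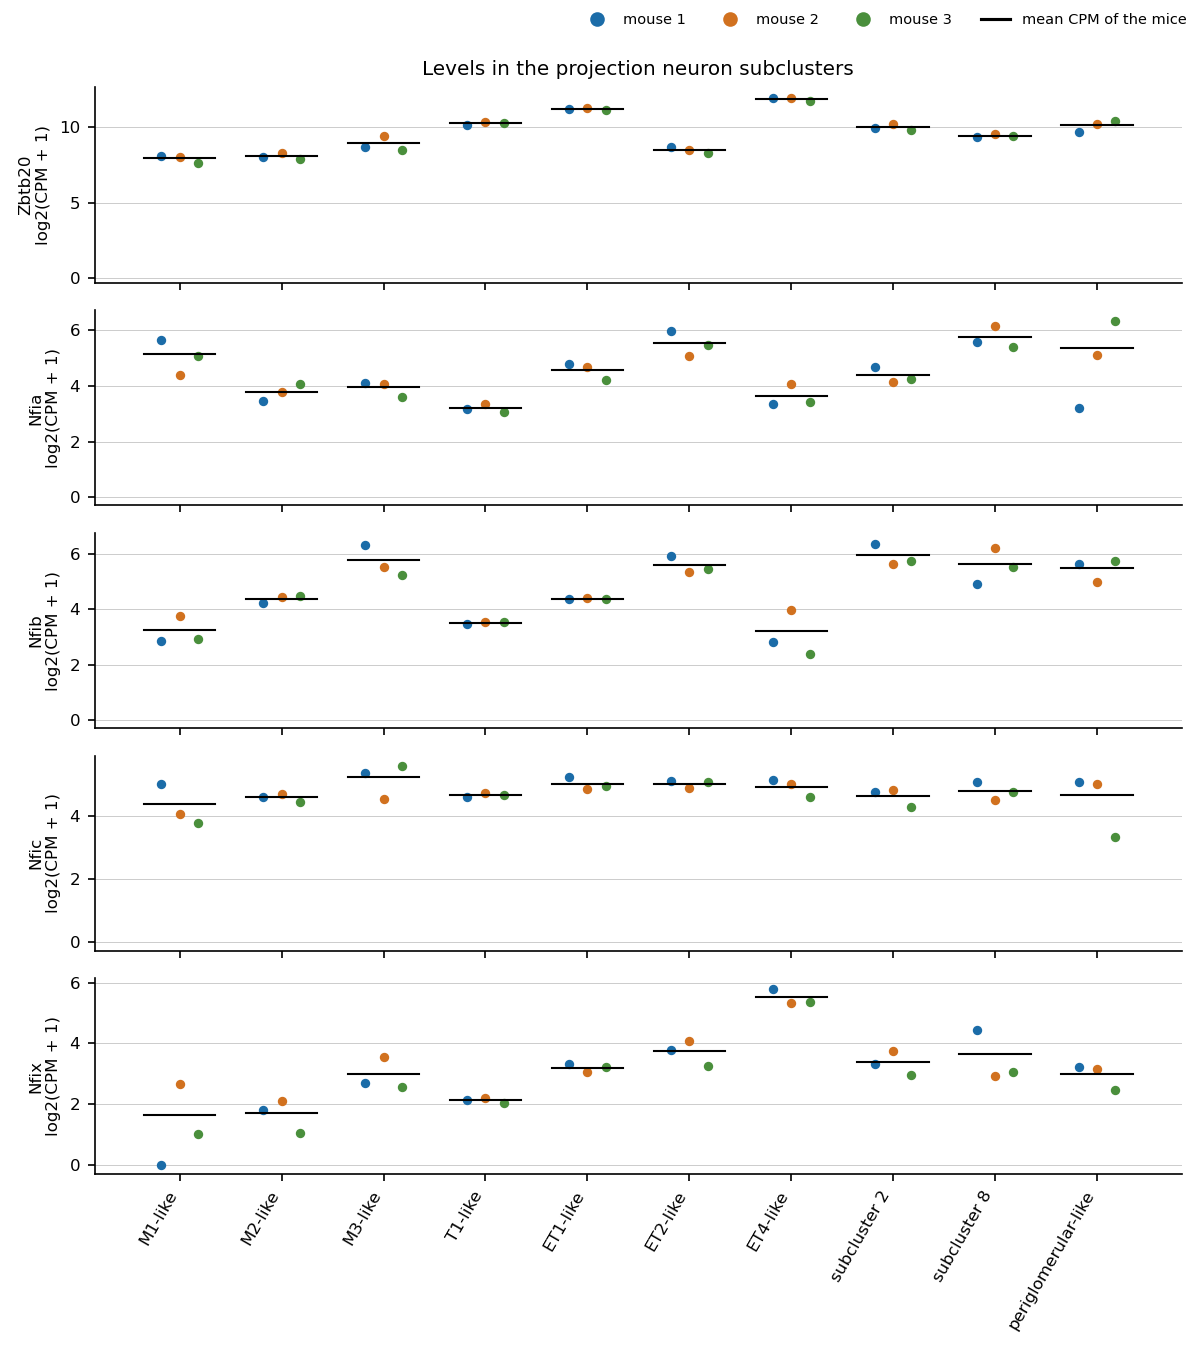
Level of each gene in the 10 projection neuron subclusters, 1 point per mouse, as log2(CPM + 1) against subcluster, with a bar at the log2 of the mean CPM plus 1. Zbtb20 steps from ET4- to ET1- to T1-like nuclei without overlap between mice, and Nfix stands apart in ET4-like nuclei at 39.5 to 54.2 CPM.

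Nfix, an NFI gene known for keeping adult neural stem cells quiescent, had 1 high type. In ET4-like nuclei it had 54.2, 39.5 and 39.8 CPM (44.5 ± 8.40), and in ET2-like nuclei, next in the order, 12.7, 15.7 and 8.47 CPM. All 3 mice were higher in ET4-like nuclei than any mouse in another subcluster. From ET2-like nuclei down to M3-like and periglomerular-like nuclei each neighbour overlapped the next. T1-like nuclei had 3.39, 3.60 and 3.08 CPM, M2-like nuclei 2.50, 3.26 and 1.07 CPM, and M1-like nuclei 0, 5.27 and 0.996 CPM. The M1-like level of 0 belongs to mouse 1, whose library summed 14 nuclei and 161593 UMIs and in which a count of 0 allows up to 18.6 CPM (3 counts, counting error only).

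Nfia, the NFI gene tied most closely to the onset of astrocyte formation, was low in all projection neuron subclusters. It had 62.5, 32.5 and 43.0 CPM in ET2-like nuclei (46.0 ± 15.2), 49.5, 20.005 and 33.1 CPM in M1-like nuclei, and 47.1, 70.9 and 41.1 CPM in unnamed subcluster 8. At the other end, T1-like nuclei had 7.94, 9.14 and 7.40 CPM (8.16 ± 0.889), just below the range of ET4-like nuclei (9.17 to 15.9 CPM), next in the order. The M1-like value of mouse 1 came from 8 UMIs in 1 nucleus. In ET2-like nuclei of mouse 3, a single nucleus held 42.6% of the Nfia UMIs, and without it the level was 25.2 CPM. In the order of means, 7 of the 9 neighbours overlapped.

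Astrocyte markers moved with Nfia among these subclusters. The 6 astrocyte markers together reached 253 to 311 CPM in ET2-like, 159 to 270 CPM in M1-like and 271 to 638 CPM in subcluster 8 nuclei, against 28.5 to 103 CPM in the other named types. In ET2- and M1-like nuclei this sum was mostly Slc1a2, a glutamate transporter gene, at 252 ± 31.02 and 207 ± 59.4 CPM. The water channel gene Aqp4 was at 3.06 ± 3.18 and 1.62 ± 1.75 CPM there, against 527 ± 130 CPM in the astrocyte-like cluster, and the gap junction gene Gja1 at 5.66 ± 3.28 and 1.45 ± 1.38 CPM against 566 ± 166 CPM.

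Nfib, the NFI gene required for lung and forebrain midline development, was highest in unnamed subcluster 2 and in M3-like nuclei. Subcluster 2 had 82.5, 49.4 and 53.4 CPM, M3-like nuclei 79.9, 45.9 and 37.1 CPM (54.3 ± 22.6) and ET2-like nuclei 60.2, 39.5 and 43.0 CPM. These ranges overlapped. The 6 inhibitory neuron markers summed to 1930.3 to 2465 CPM in subcluster 2, against 74.8 to 1072 CPM in the named types, and their part in its Nfib level was not tested. ET1- and M2-like nuclei had 19.9 ± 0.168 and 19.9 ± 1.76 CPM. In ET1-like nuclei of mouse 1, a single nucleus held 36.4% of the Nfib UMIs, and without it the level was 12.8 CPM. T1-like nuclei had 10.2, 10.6 and 10.8 CPM, M1-like nuclei 6.19, 12.7 and 6.57 CPM, and ET4-like nuclei 5.98, 14.9 and 4.19 CPM. In ET2-like nuclei of mice 1 and 3, a single nucleus held 42.3% and 62.3% of the Nfib UMIs, and without it the levels were 35.5 and 16.6 CPM. In ET4-like nuclei of mouse 3, a single nucleus held 66.7%, and without it the level was 1.41 CPM. The highest nucleus of the M3-like libraries held 11.5% to 30.4%.

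Nfic, the NFI gene known from tooth root formation, showed the smallest spread of the 5 genes. Its means ran from 19.7 CPM in M1-like to 36.2 CPM in M3-like nuclei, a ratio of 1.84. All 9 neighbours in the order overlapped.

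The counts of all genes were then fitted over 21 libraries of 161593 to 16961469 UMIs, 1 for each of the 7 named types in each mouse. With edgeR's quasi-likelihood test and Benjamini-Hochberg adjustment, all 5 genes differed between types, at an adjusted p of 1.27e-16 for Zbtb20, 1.91e-10 for Nfix, 1.16e-07 for Nfib, 5.09e-07 for Nfia and 0.00294 for Nfic. Of the 14696 genes tested, 64.8% differed as well, so that a difference between types was the rule. The types were clustered from the same counts, and the p-values describe these clusters against the spread between 3 mice and do not test whether the types exist. Without mouse 3, Nfic had an adjusted p of 0.0848.

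Each type was next compared with the mean of the other types, with calls made where the adjusted p was below 0.05 and the log2 fold change beyond 1 in either direction. In ET4-like nuclei 2 genes were higher and 1 lower, where 8.72% of all genes were higher and 9.32% lower. On the log2 scale, Nfix was higher by 2.95 (SE 0.22, adjusted p = 2.66e-11, edgeR's quasi-likelihood test), Zbtb20 by 2.60 (SE 0.11, adjusted p = 2.1e-16), and Nfib was lower at -1.22 (SE 0.25, adjusted p = 0.00029). Without mouse 1 the Nfib value was -0.93, under the fold required. In ET1-like nuclei Zbtb20 alone was called, at 2.03 (SE 0.11), where 5.17% of genes were higher and 3.44% lower.

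In ET2-like nuclei 2 genes were higher and 1 lower. Nfia and Nfib were higher at 1.44 (SE 0.21, adjusted p = 4.22e-06) and 1.38 (SE 0.21, adjusted p = 8.11e-06, edgeR's quasi-likelihood test), and Zbtb20 was lower at -1.27 (SE 0.14). Nfix at 0.93 (SE 0.30, adjusted p = 0.0215) was under the fold required. There, 7.64% of all genes were higher and 6.18% lower. In T1-like nuclei Nfia and Nfix were lower at -1.16 (SE 0.21) and -1.13 (SE 0.28), where 5.5% of genes were lower and 6.68% higher. Zbtb20 in T1-like nuclei was at 0.97 (SE 0.12, adjusted p = 2.64e-07), just under the fold required. Without mouse 2 the Nfix value in T1-like nuclei was -0.74, which was not called.

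Among mitral types, M1-like nuclei had 3 of the 5 genes lower, where 4.04% of all genes were lower and 7.81% higher. Zbtb20 was at -1.92 (SE 0.16, adjusted p = 4.13e-10), Nfix at -1.22 (SE 0.35, adjusted p = 0.00957) and Nfib at -1.09 (SE 0.25, adjusted p = 0.00185, edgeR's quasi-likelihood test). The Nfix call was lost without mouse 1 (-1.17) and without mouse 3 (-0.77), its value without mouse 2 was -2.73, and the Nfib call without mouse 3 (-0.83). M2-like nuclei had Nfix and Zbtb20 lower, at -1.71 (SE 0.31) and -1.53 (SE 0.14), where 5.29% of genes were lower and 6.83% higher. In M3-like nuclei Nfib was higher at 1.48 (SE 0.25, adjusted p = 8.3e-05), where 5.37% of genes were higher and 3.2% lower, and Zbtb20 at -0.88 (SE 0.14) was under the fold required. Across the 7 types, 15 of 35 comparisons of a gene with a type were called, and none of them was of Nfic.

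Mitral and tufted types were then set against each other, as the mean of the 3 mitral types against that of the 4 tufted types. Of the 5 genes 2 were lower in the mitral types, where 3.81% of all genes were lower and 5.53% higher. Besides Zbtb20 at -2.17 (SE 0.10), this was Nfix at -1.51 (SE 0.23, adjusted p = 1.16e-05, edgeR's quasi-likelihood test). Nfic was at -0.36 (SE 0.11, adjusted p = 0.0185), under the fold required. Nfib at 0.30 (SE 0.16, adjusted p = 0.176) and Nfia at -0.06 (SE 0.17, adjusted p = 0.846) did not pass the test, and both are contrasts of means in which types of 1 side went in different directions. ET2-like nuclei had a lower mean of Zbtb20 than M3-like nuclei (364.3 against 491 CPM, with overlapping ranges), so that the contrast of means did not describe each tufted type. The same held for Nfix, which was highest in ET4-like nuclei. T1-like nuclei, although tufted by name, had Nfix at 3.39, 3.60 and 3.08 CPM in mice 1, 2 and 3. M3-like nuclei had 5.45, 10.6 and 4.83 CPM.

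**Figure D2:**
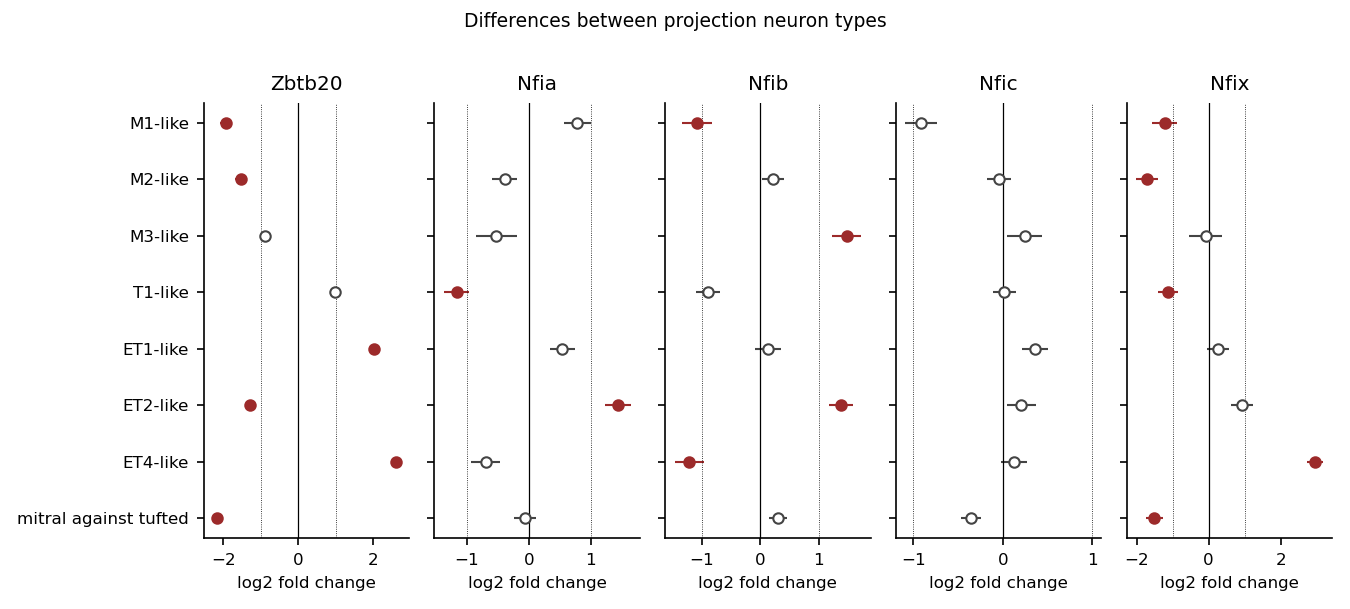
Log2 fold change of each gene in each named type against the mean of the other types, and of mitral against tufted types, with bars of 1 SE. Filled red points passed an adjusted p of 0.05 and a log2 fold change of 1 in either direction (dotted lines). ET4-like nuclei lie farthest to the right for Zbtb20 and Nfix, at 2.60 and 2.95.

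Over all 22 clusters, the genes differed in how far they ranged. The ratio of the highest to the lowest mean was 18.1 for Zbtb20, 142 for Nfia, 47.2 for Nfib, 4.23 for Nfic and 72.7 for Nfix. Zbtb20 was highest in cluster 4, at 2951, 2781 and 2414 CPM (2715 ± 274). This cluster joins 883 ET4- and 678 ET1-like nuclei with 322 of unnamed subcluster 2 and fewer of other subclusters. The ensheathing-glia-like cluster 11 had 2708.5, 2288 and 2860 CPM and the vascular-like cluster 18 had 3132, 2338 and 2241 CPM, and these 3 clusters overlapped. Astrocyte-like cluster 9 followed at 2044, 1744 and 1951 CPM, without overlap to them. The lowest level was that of inhibitory cluster 17 at 129, 196 and 125 CPM (149.9 ± 39.7), below all mice of every other cluster.

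Nfia was highest in non-neuronal clusters. Astrocyte-like nuclei had 1201, 823 and 1238 CPM (1087 ± 230), vascular-like nuclei 1090, 734 and 860 CPM and ensheathing-glia-like nuclei 913, 735 and 920 CPM. Microglia-like nuclei had 1040, 416 and 254 CPM, from libraries of 19, 103 and 24 nuclei. The lowest neuronal clusters, 3 and 17, had means of 7.68 and 7.86 CPM. Among inhibitory clusters only 7, 8 and 15 had means above 50 CPM, cluster 7 with 296, 200.1 and 225 CPM and cluster 8 with 351, 45.2 and 631 CPM.

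Nfib was instead highest in an inhibitory cluster. Cluster 7 had 993, 669 and 914 CPM (859 ± 169), cluster 15 had 743, 609 and 716 CPM, cluster 8 had 647, 695 and 513 CPM and cluster 10 had 668, 408 and 604 CPM. These ranges overlapped along the order, together with the vascular-like cluster. Astrocyte-like nuclei had 527, 438 and 555 CPM (507 ± 60.8). The projection neuron clusters 2, 4, 5, 13 and 14 had means of 18.2 to 48.4 CPM. In cluster 13, mouse 1 stood at 89.6 CPM, from 21 UMIs in 5 of its 23 nuclei, against 15.7 and 9.26 CPM in mice 2 and 3.

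Nfix had its highest means in inhibitory cluster 7 (165, 113 and 169 CPM), in oligodendrocyte-like cluster 16 (159.7, 105 and 157 CPM) and in inhibitory cluster 8 (123, 144 and 94.1 CPM), which overlapped. Its lowest mean was that of cluster 13 at 2.05 CPM. Nfic had means of 17.95 to 76.0 CPM, highest in vascular-like nuclei, and all 21 neighbours in its order overlapped. The number of overlapping neighbours was 18 of 21 for Zbtb20 and Nfia, 16 for Nfib and 20 for Nfix.

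**Figure D3:**
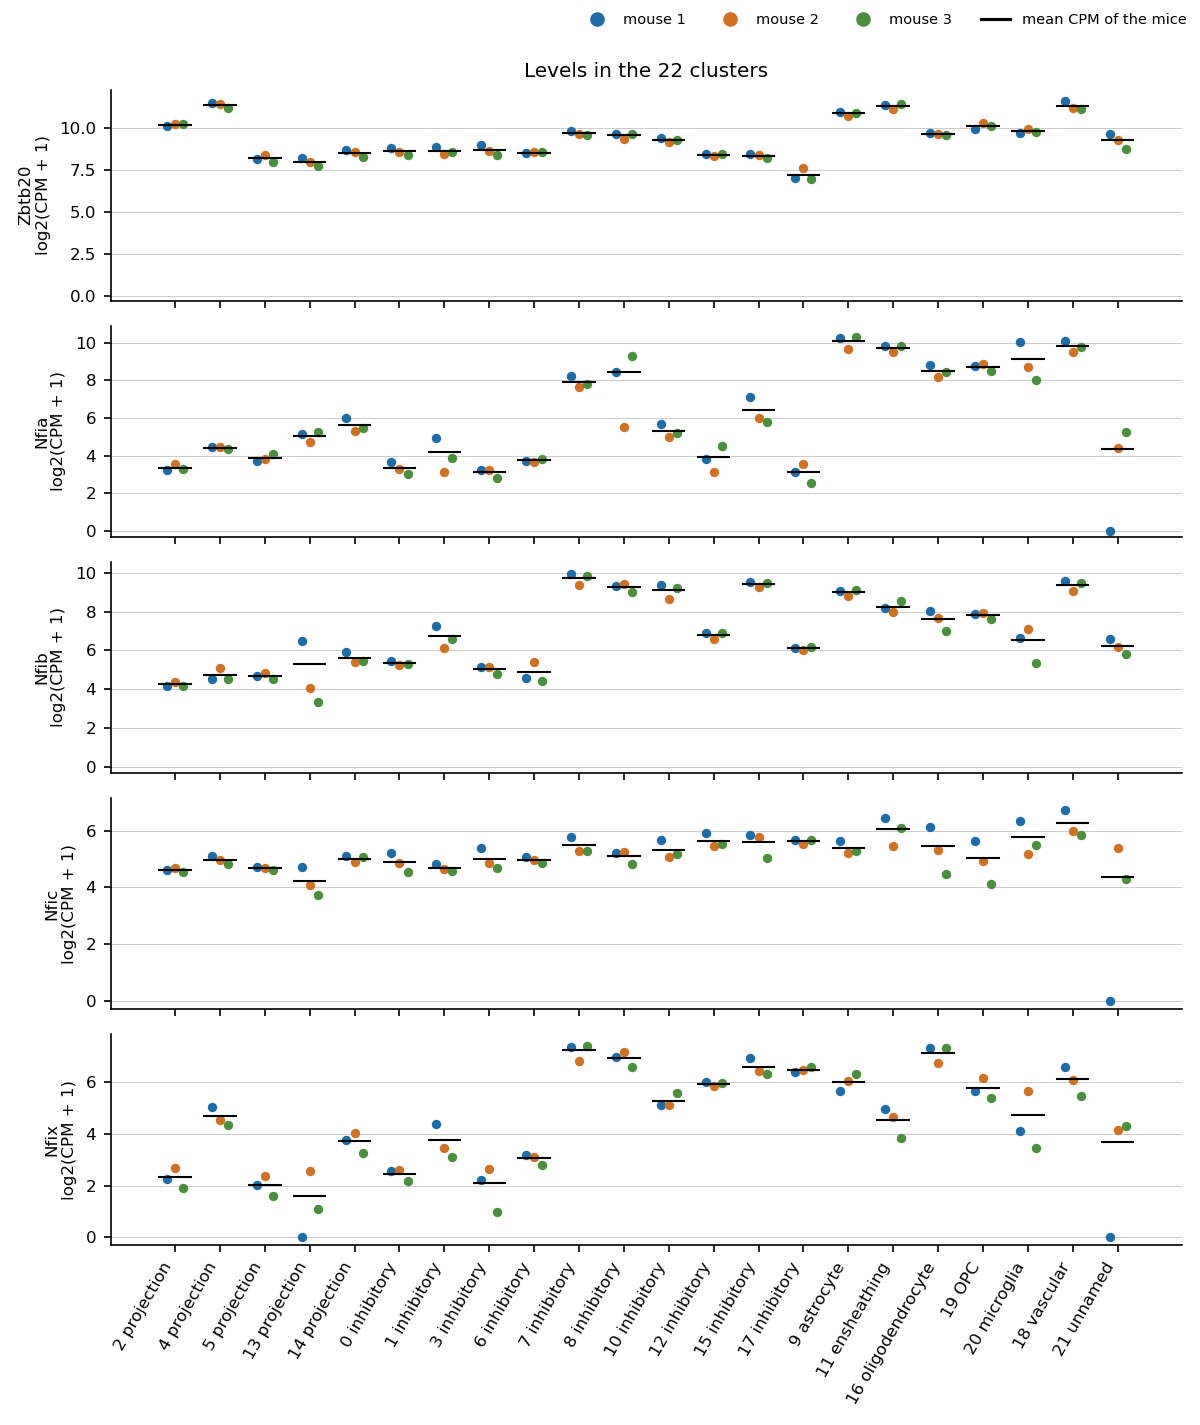
Level of each gene in all 22 clusters, 1 point per mouse, as log2(CPM + 1) against cluster, with a bar at the log2 of the mean CPM plus 1; labels give the like type of each cluster. Nfia is highest in astrocyte- to vascular-like clusters, Nfib in inhibitory clusters 7 and 15 and the vascular-like cluster, and Nfia of cluster 8 spreads from 45.2 to 631 CPM between mice.

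Projection and inhibitory neurons were compared as sums over their clusters, in a fit of 21 libraries with the glial classes. Zbtb20 was higher in projection neurons by 1.46 (SE 0.28, adjusted p = 0.000192, edgeR's quasi-likelihood test), where 12.9% of all genes were higher. This did not hold for each projection cluster. Clusters 4 and 2 were at 2715 ± 274 and 1174 ± 57.4 CPM, above the 125 to 931 CPM of the inhibitory clusters in any mouse, and clusters 14, 5 and 13 were at 369, 293 and 256 CPM, under the means of inhibitory clusters 0, 1, 3, 6, 7, 8 and 10 (374 to 843 CPM). Nfib was lower at -2.70 (SE 0.30, adjusted p = 8.17e-08), Nfia at -1.61 (SE 0.41, adjusted p = 0.00299) and Nfix at -1.59 (SE 0.27, adjusted p = 3.07e-05), where 10.9% of genes were lower. The Nfia and Nfix calls were lost when inhibitory clusters 7, 8, 10 and 12 were left out together, and what each of them contributed was not tested. Without these clusters Nfia was at 0.54 (adjusted p = 0.207) and Nfix at -0.20 (adjusted p = 0.60), while Nfib and Zbtb20 kept their calls. Without mouse 3, Nfia was at -1.003 with an adjusted p of 0.0922. Much of the inhibitory Nfia level lay in 69 nuclei of cluster 8 with 9 or more Nfia UMIs (15, 9 and 45 in mice 1, 2 and 3), which held 43.9%, 9.75% and 78.1% of the Nfia UMIs of all inhibitory clusters. They were low in Gad1 (67.4 against 679 CPM in the rest of cluster 8) and higher in Slc17a7 (178 against 30.8 CPM). Nfia in inhibitory neurons was at 53.1, 20.8 and 98.7 CPM with them and at 30.1, 18.8 and 22.7 CPM without them, against 14.6, 17.3 and 18.3 CPM in projection neurons. The nuclei were picked by their Nfia count, so that no test was made without them.

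Each glial class was set against the mean of both neuron classes. Nfia was higher in all 5 glial classes, by 4.95 (SE 0.36) in astrocyte-like, 4.62 (SE 0.35) in ensheathing-glia-like, 3.40 (SE 0.35) in oligodendrocyte-like, 3.49 (SE 0.35) in precursor-like and 3.52 (SE 0.36) in microglia-like nuclei, all with adjusted p of at most 2.39e-08 (edgeR's quasi-likelihood test). The other genes were split between classes. Astrocyte-like nuclei also had Nfib at 2.87 (SE 0.24), Nfix at 1.92 (SE 0.24) and Zbtb20 at 1.26 (SE 0.23), so that 4 of the 5 genes were higher where 13.7% of all genes were. Ensheathing-glia-like nuclei had Nfib at 2.13 (SE 0.24), Zbtb20 at 1.73 (SE 0.23) and Nfic at 1.004 (SE 0.22, adjusted p = 0.000776), 4 genes where 16.1% of all genes were higher, and Nfix at 0.44 (SE 0.28) did not pass. Nfic there stood on the fold required and fell short of it with the mouse as a block (0.98) and without mouse 1 (0.91) or mouse 3 (0.80). The 6 astrocyte markers summed to 846 to 1532 CPM in ensheathing-glia-like nuclei, mostly Gja1 at 586 ± 246 CPM and Slc1a3 at 474 ± 95.0 CPM, with Aqp4 at 6.76 ± 1.25 and S1pr1 at 2.77 ± 2.67 CPM, against 527 ± 129.6 and 326 ± 84.1 CPM in astrocyte-like nuclei. Their part in these calls was not tested.

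In oligodendrocyte-like nuclei, which make myelin, Nfix was higher by 3.003 (SE 0.26, adjusted p = 1.01e-09) and Nfib by 1.59 (SE 0.25, edgeR's quasi-likelihood test), and Zbtb20 at 0.05 (SE 0.24) did not pass. These 3 calls with Nfia compare with 12% of all genes called higher. In their precursors Nfix was at 1.70 (SE 0.31) and Nfib at 1.63 (SE 0.25), 3 calls where 10.8% of all genes were higher. In microglia-like nuclei Nfia alone was called, where 10.1% were. Microglia come from the yolk sac and not from neural progenitors, and their libraries carried 264 to 617 CPM of the 6 astrocyte markers, with Aldh1l1 at 0 UMIs in all 3 mice. The corresponding sum was 3640.2 to 5913 CPM in astrocyte-like nuclei and 19.8 to 198 CPM in inhibitory clusters other than 7. Whether carried-over astrocyte RNA contributed to Nfia in microglia-like nuclei was not tested.

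Inhibitory clusters were compared with each other in 30 libraries of 308764 to 44969722 UMIs. All 5 genes differed between the 10 clusters, where 59.2% of 14722 genes did. Without mouse 2, Nfic had an adjusted p of 0.0563 there. Cluster 7, with Calb2 among its leading genes, had 3 genes higher, Nfia by 3.26 (SE 0.31, adjusted p = 6.81e-10), Nfib by 2.67 (SE 0.13, adjusted p = 1.55e-16) and Nfix by 2.45 (SE 0.16, adjusted p = 9.08e-14, edgeR's quasi-likelihood test). Zbtb20 at 0.99 (SE 0.11) was just under the fold. Of all genes 5.9% were higher and 4.12% lower in cluster 7. Its astrocyte markers summed to 574 to 789 CPM, mostly Slc1a3 at 517 ± 84.9 CPM and Slc1a2 at 129 ± 22.8 CPM, while Aqp4 was at 10.4 ± 3.78 and Gja1 at 9.17 ± 2.14 CPM. Slc1a3 is a glial glutamate transporter gene that is also known from neural progenitors and their young progeny.

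Cluster 8, with Calb1 among its leading genes, had the same 3 genes called, Nfia at 3.95 (SE 0.28, adjusted p = 1.51e-12), Nfib at 2.21 (SE 0.14) and Nfix at 2.18 (SE 0.15, edgeR's quasi-likelihood test), where 7.65% of genes were higher and 1.51% lower, and Zbtb20 at 0.90 (SE 0.11) was under the fold. The Nfia level of cluster 8 lay in 69 of its 1356 nuclei, which held 74.1% to 98.4% of its Nfia UMIs, and its other nuclei were at 8.89 to 15.7 CPM. Cluster 15 had Nfib at 2.34 (SE 0.14), Nfix at 1.79 (SE 0.20) and Nfia at 1.61 (SE 0.44, adjusted p = 0.00571), where 6.34% were higher and 6.97% lower, and the Nfia call was lost without mouse 1 (1.32, adjusted p = 0.178). Cluster 10 had Nfib alone at 2.14 (SE 0.14), where 4.97% were higher and 2.78% lower. Cluster 12 had Nfix alone at 1.11 (SE 0.20), where 3.89% were higher and 2.26% lower.

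Clusters 0, 3 and 6 were the low end. In clusters 0, 3 and 6, Nfib was at -2.09 (SE 0.20), -2.37 (SE 0.21) and -2.63 (SE 0.21), and Nfix at -2.95 (SE 0.23), -3.16 (SE 0.26) and -2.24 (SE 0.25). Nfia was at -1.79 (SE 0.43, adjusted p = 0.00206), -1.97 (SE 0.48, adjusted p = 0.00186) and -1.39 (SE 0.47, adjusted p = 0.0295, edgeR's quasi-likelihood test). These are 3 of 5 genes lower in each cluster, where 5.9%, 7.7% and 3.84% of all genes were lower and 3.64%, 4.28% and 6.6% higher, and all 3 Nfia calls were lost without mouse 1 (adjusted p = 0.0629, 0.06998 and 0.258). Cluster 1 had Nfix alone lower, at -1.36 (SE 0.21), where 3.85% were lower and 5.6% higher, and with the mouse as a block Nfia was called there too (-1.04, adjusted p = 0.0298). The mean against which clusters 0, 1, 3 and 6 were set includes cluster 8. Its Nfia level lay in 69 nuclei, and its other nuclei were at 8.89 to 15.7 CPM. What these 69 nuclei add to the Nfia values of clusters 0, 1, 3 and 6 was not tested.

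Cluster 17 split the genes. Nfix was higher by 1.80 (SE 0.20, adjusted p = 1.15e-08), where 8.76% of genes were higher, while Zbtb20 at -1.54 (SE 0.15, adjusted p = 9.12e-10) and Nfib at -1.23 (SE 0.21, adjusted p = 3.89e-05, edgeR's quasi-likelihood test) were lower, where 6.91% were. Nfia was at -1.73 (SE 0.68, adjusted p = 0.0525). Across the 10 clusters, 24 of 50 comparisons were called, and none was of Nfic.

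**Figure D4:**
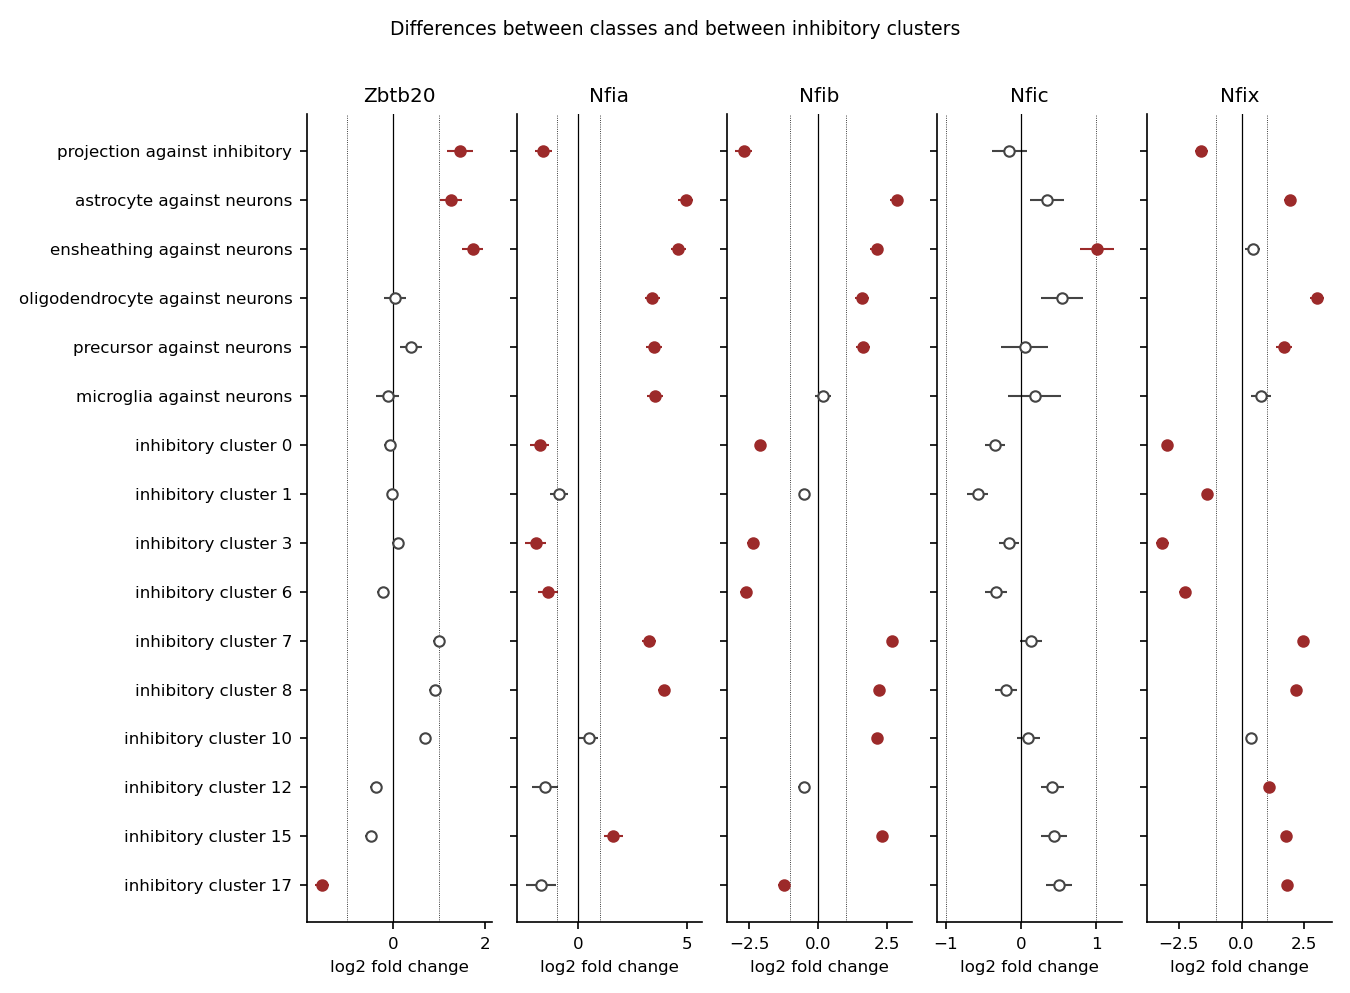
Log2 fold change of each gene in projection against inhibitory neurons, in each glial class against the mean of both neuron classes, and in each inhibitory cluster against the mean of the others, with bars of 1 SE. Filled red points passed an adjusted p of 0.05 and a log2 fold change of 1 in either direction (dotted lines). Nfia lies at 3.40 or above in all 5 glial classes, and Nfib and Nfix split the inhibitory clusters.

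The level of Nfia in cluster 8 was set by few nuclei. Of its 1356 nuclei, 69 held 9 or more Nfia UMIs, a threshold chosen after the counts had been seen. They were 15 of 223, 9 of 872 and 45 of 261 nuclei in mice 1, 2 and 3, or 6.73%, 1.03% and 17.2%, and they held 97.9%, 74.1% and 98.4% of the Nfia UMIs of the cluster. Nfia was at 2125, 1389 and 1716 CPM in these nuclei and at 8.89, 11.98 and 15.7 CPM in the others. The order of mice in the level of cluster 8 thus followed the share of these nuclei. In cluster 7, 47.2%, 44.6% and 44.0% of nuclei held at least 1 Nfia UMI, and nuclei with 9 or more held 7.47% to 14.97% of its Nfia UMIs.

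The 69 nuclei differed from the rest of cluster 8 in other genes, too. Nfib was at 67.5, 31.9 and 60.8 CPM in them and at 759, 712 and 770 CPM in the others. Nfix was at 49.1, 63.8 and 34.8 CPM against 137, 146 and 128 CPM, and Zbtb20 at 1262, 883 and 1073 CPM against 739, 643 and 674 CPM. Nfib and Nfix were thus lower and Zbtb20 higher in these nuclei in all 3 mice. The 6 inhibitory neuron markers summed to 1293 CPM over these nuclei and 5934 CPM over the others, with Gad1 at 67.4 against 679 CPM and Gad2 at 25.9 against 325 CPM, whereas Slc17a7, the vesicular glutamate transporter of projection neurons, was at 178 against 30.8 CPM. The 6 projection neuron markers, Slc17a7 among them, summed to 330 against 138 CPM. Markers of single types went both ways, with M1 at 64.1 against 307 CPM and M2 at 219 against 499 CPM. Those of M3 were at 543 against 397 CPM and those of ET4 at 223 against 48.3 CPM. The 6 astrocyte markers summed to 156 against 69.5 CPM, with Aqp4 at 1.12 CPM. They were deeper, with a median of 17709, 19080.0 and 24704 UMIs against 6286, 7069 and 7841 UMIs in mice 1 to 3. The nuclei were picked by their Nfia count, so that these values describe them and are not tested, and whether doublets or a different cell type within the cluster account for them was not tested. The other nuclei had Nfia in the range of inhibitory clusters 0, 1, 3 and 6 (6.11 to 29.9 CPM).

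**Figure D5:**
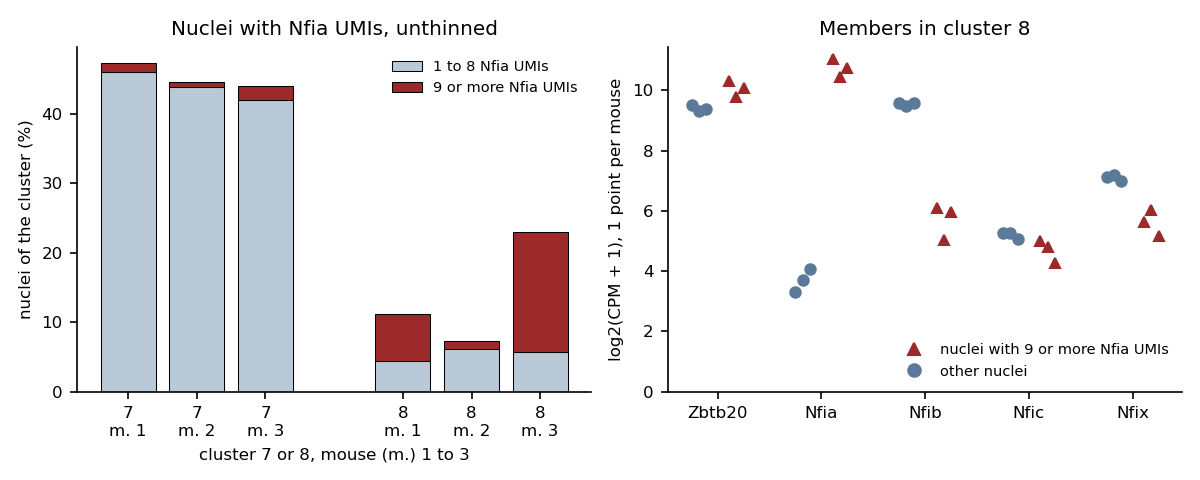
Left, percent of nuclei of inhibitory clusters 7 and 8 in each mouse that held 1 to 8 or at least 9 Nfia UMIs. Right, level of each gene as log2(CPM + 1) in cluster 8 nuclei with at least 9 Nfia UMIs (triangles) and in its other nuclei (circles), 1 point per mouse. The nuclei with many Nfia UMIs are 1.03% to 17.2% of cluster 8 and have Nfib at 31.9 to 67.5 CPM against 712 to 770 CPM.

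Shares of nuclei with a UMI were compared after each nucleus had been thinned to 2000 UMIs, which left out 97 nuclei (16, 79 and 2 in mice 1, 2 and 3). Zbtb20 was in 99.4% ± 0.176 of ET4-like nuclei and 35.8% ± 5.33 of M1-like nuclei, unthinned 99.9% and 86.4% at median depths of 10003 to 13063 and 11248 to 24408 UMIs. The lowest mean share of any cluster was that of inhibitory cluster 17, with 19.4% to 26.5% over the 3 mice, and a mean of 67.2% unthinned, at median depths of 15512 to 20186 UMIs, and what free RNA adds to the shares of M1-like nuclei was not tested. Nfia was in 83.2% ± 5.13 of astrocyte-like nuclei, in 31.7% ± 4.05 of cluster 7 and in 1.61% ± 0.241 of inhibitory cluster 0, unthinned 96.7%, 45.3% and 5.09% at median depths of 3839.5 to 6063, 3757 to 5062 and 6920.0 to 9001 UMIs. T1-like nuclei had Nfia in 1.49% ± 0.150, the lowest mean share of any subcluster. What free RNA in the droplets adds to shares as low as those of cluster 0 and T1-like nuclei was not tested.

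Nfib was in 75.6% ± 5.39 of cluster 7 nuclei and in 1.93% ± 0.120 of T1-like nuclei, unthinned 91.9% and 10.1%. Nfix was in 24.1% ± 2.79 of cluster 7 and 25.3% ± 3.69 of oligodendrocyte-like nuclei, unthinned 39.9% and 47.9%. In ET4-like nuclei Nfix was in 8.35% ± 1.28 and in M2-like nuclei in 0.477% ± 0.292, unthinned 28.6% and 3.48%, at median depths of 10003 to 13063 and 19594 to 23455 UMIs. The deeper type had the smaller share. Nfix of M2-like nuclei at this depth is near the level of single UMIs and cannot be told from background.

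Genes known as NFI targets in glia (among them Gfap, Fabp7, Sox9, Apcdd1, Mmd2 and Zcchc24) were followed as a list of 7. In astrocyte-like nuclei all 7 were higher than in neurons, where 13.7% of all genes were, with a median log2 fold change of 5.84 against -0.06 over all genes tested. Sox9, a gliogenic transcription factor gene, was among the largest at 6.32 (SE 0.24), and the smallest were Fabp7 at 3.08 (SE 0.34) and Apcdd1 at 1.47 (SE 0.47). In ensheathing-glia-like nuclei all 7 were higher as well, where 16.1% of all genes were, with a median of 5.82 against -0.06, led by Apcdd1 at 7.60 (SE 0.25), with Gfap at 1.58 (SE 0.31) and Sox9 at 2.46 (SE 0.33) the smallest. Oligodendrocyte-, precursor- and microglia-like nuclei had 5, 4 and 3 of the 7 higher, where 12%, 10.8% and 10.1% of all genes were, with medians of 1.29, 2.25 and 1.15 against -0.15, -0.10 and -0.20. Many of these genes also serve as glial markers and are not independent of the cluster.

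The same list was followed in neurons. In projection against inhibitory neurons 2 of 7 were lower, where 10.9% of all genes were, Apcdd1 at -2.18 (SE 0.34) and Mmd2 at -1.86 (SE 0.33), with a median of -0.59 against 0.03. In inhibitory cluster 7, which had Nfia, Nfib and Nfix higher, 3 of 7 were higher, where 5.9% of all genes were, Sox9 at 3.22 (SE 0.37), Apcdd1 at 2.06 (SE 0.40) and Gfap at 1.24 (SE 0.35), with a median of 0.93 against 0.01. In cluster 8 none of the 7 was called, where 7.65% of all genes were higher and 1.51% lower, with a median of -0.15 against 0.02 (edgeR's quasi-likelihood test). Cluster 15, which also had Nfia, Nfib and Nfix called higher, had 1 of 7 higher, where 6.34% of all genes were. Its median was 0.03 against -0.04. In ET2-like nuclei, which had Nfia and Nfib higher, 1 of the 5 genes tested was called, Sox9 at 5.84 (SE 0.37), where 7.64% of all genes were higher and 6.18% lower, with a median of 0.07 against 0.02. Sox9 had 28.9, 28.4 and 24.0 CPM in ET2-like nuclei of mice 1, 2 and 3. It had at most 2.69 CPM in any mouse of another named type. Its call thus restates this level in 1 type, and a link to Nfia or Nfib was not tested. The value of Sox9 in mitral against tufted types, -3.10 (SE 0.76), reflects the same ET2-like level and is not a second result. In that contrast 1 of 5 genes was lower, where 3.81% of all genes were, with a median of -0.19 against -0.03.

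Of the NFI targets known from neurons and progenitors (Gabra6, Ephb1, Cntn2, Cdh2, Wnt7a, Hes1, Ezh2 and Insc), 5 passed the filter on low counts among projection neuron types. Ephb1, an ephrin receptor gene, was higher in ET2-like nuclei by 6.07 (SE 0.15) and in ET4-like nuclei by 1.66 (SE 0.21), the only call of the list in either type, with list medians of 0.10 and 0.59 against 0.02 and 0.01 over all genes, of which 7.64% and 8.72% were higher. It had 450.1, 389 and 561 CPM in ET2-like nuclei and 32.7, 37.8 and 33.5 CPM in ET4-like nuclei of mice 1, 2 and 3, above every mouse of the other named types. Ephb1 was lower in mitral types at -2.60 (SE 0.22), again the only call, where 3.81% of all genes were lower. This value reflects the same ET2- and ET4-like levels and is not a further result. In astrocyte-like nuclei 4 of 7 were higher, with Wnt7a at 4.19 (SE 0.33) and Hes1 at 3.79 (SE 0.25) the largest, and 2 were lower, Cntn2 at -1.20 (SE 0.27) and Ephb1 at -1.13 (SE 0.36), where 13.7% of all genes were higher and 10.1% lower, with a median of 1.14 against -0.06. In cluster 8, 4 of 6 were higher, Ephb1 at 3.36 (SE 0.22), Cdh2 at 1.40 (SE 0.10), Wnt7a at 1.22 (SE 0.27) and Cntn2 at 1.09 (SE 0.22), where 7.65% of all genes were higher, with a median of 1.16 against 0.02. In cluster 8 Nfia was high in other nuclei than Nfib and Nfix. In cluster 7, which also had these 3 genes called higher, 1 of 6 was higher, Cntn2 at 1.78 (SE 0.22), and 2 were lower, Ephb1 at -1.28 (SE 0.41) and Cdh2 at -1.04 (SE 0.12), where 5.9% of all genes were higher and 4.12% lower, with a median of -0.45 against 0.01. Cluster 15, also with these 3 genes called higher, had 1 of 6 higher and 1 lower, where 6.34% and 6.97% of all genes were. Its median was -0.19 against -0.04. Clusters 0, 3 and 6, with the 3 genes lower, had 0, 0 and 2 of 6 higher and 3, 2 and 1 lower. Of all genes, 3.64%, 4.28% and 6.6% were higher there and 5.9%, 7.7% and 3.84% lower. Their medians were -1.07, -0.65 and 0.15 against 0.01, 0.01 and 0.02. The list thus went in different directions in these clusters.

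Genes that Zbtb20 is known to repress in cortical and hippocampal neurons formed the next list, of which 9 of 11 were tested among projection neuron types and all 9 differed between types, where 64.8% of all genes did. In the mitral types, with low Zbtb20, 2 of the 9 were higher, Sox5 at 2.86 (SE 0.11) and Foxp2 at 2.33 (SE 0.14), and 4 were lower, among them Rorb at -1.68 (SE 0.37) and Cux1 at -1.39 (SE 0.07), where 5.53% of all genes were higher and 3.81% lower, with a median of -0.99 against -0.03 over all genes. In ET4-like nuclei, with the highest Zbtb20, Sox5 at -4.42 (SE 0.22) and Foxp2 at -1.79 (SE 0.23) were lower and Zfpm2 at 3.05 (SE 0.15) and Cux1 at 1.46 (SE 0.08) higher, where 9.32% of all genes were lower and 8.72% higher, with a median of 0.36 against 0.01. In ET1-like nuclei 5 were higher, Zfpm2 at 2.93 (SE 0.15) and Rorb at 2.76 (SE 0.35) the largest, and Foxp2 at -1.29 (SE 0.22) and Sox5 at -1.13 (SE 0.17) were lower, where 5.17% of all genes were higher and 3.44% lower, with a median of 1.14 against -0.00086. In ET2-like nuclei, with Zbtb20 called lower, 2 of 9 were higher and 2 lower, where 7.64% of all genes were higher and 6.18% lower. The median there was -0.65 against 0.02. The list went in both directions in each of these types. In projection against inhibitory neurons 5 of 10 were higher, led by Cux2 at 4.20 (SE 0.31) and Tbr1 at 3.41 (SE 0.31), the smallest of them Cux1 at 1.28 (SE 0.24), and 1 was lower, Foxp2 at -1.68 (SE 0.45), where 12.9% of all genes were higher and 10.9% lower, with a median of 0.99 against 0.03. In cluster 17, the inhibitory cluster with Zbtb20 called lower, 3 of 10 were higher, Foxp2 at 4.86 (SE 0.23), Zfpm2 at 3.61 (SE 0.11) and Cux1 at 1.66 (SE 0.10), and 1 was lower, Sox5 at -1.76 (SE 0.30), where 8.76% of all genes were higher and 6.91% lower, with a median of -0.14 against -0.01. Zbtb20 was not called in clusters 7 and 8. Inhibitory cluster 7 had Sox5 at 4.05 (SE 0.16) and Rorb at 3.82 (SE 0.22) higher, and cluster 8 had Foxp2 at 5.15 (SE 0.22) and Tbr1 at 2.35 (SE 0.53) higher, 2 of 10 in each, where 5.9% and 7.65% of all genes were higher, with medians of 0.19 and -0.01 against 0.01 and 0.02. Zbtb20 was not called in clusters 0, 1, 3, 6, 10, 12 and 15 either. They had 0 to 4 of 10 genes higher and 0 to 4 lower, with list medians of -0.61 to -0.03. Of all genes, 3.64% to 6.6% were higher there and 2.26% to 7.7% lower.

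Among the other genes whose symbols begin with Zbtb, 34 of 41 were tested in the projection neuron types. Zbtb16, a zinc finger gene of the same family, was higher in ET4-like nuclei by 3.45 (SE 0.14, adjusted p = 2.1e-16) and lower in mitral types at -2.14 (SE 0.16, adjusted p = 4.55e-11, edgeR's quasi-likelihood test), the only call of the family beside Zbtb20 in the latter. In ET4-like nuclei Zbtb11os1, a transcript opposite Zbtb11, was higher at 1.42 (SE 0.39) and Zbtb34 lower at -1.53 (SE 0.21). These were 2 of 34 higher and 1 lower in ET4-like nuclei, where 8.72% of all genes were higher and 9.32% lower, and 1 of 34 lower in mitral types, where 3.81% were. In ET2-like nuclei 4 of 34 were higher (Zbtb8b, Zbtb46, Zbtb7b and Zbtb8a, at 1.24 to 1.51), where 7.64% of all genes were, and the family median was 0.12 against 0.02. For mitral against tufted types the median was -0.01 against -0.03 over all genes, and for ET4-like nuclei both were 0.01.

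The genes whose level followed each member most closely were ranked by Pearson's r of log2(CPM + 1), as a description over groups that share mice, libraries and depth. Over the 22 clusters and 12468 genes, Zbtb20 was followed by Alpk1 (r = 0.84), Gm11146 (0.81) and Smarca2 (0.80). Nfia was followed by Cdc14a (0.93), Ssbp1 (0.89) and E130114P18Rik (0.89), the last of which overlaps Nfia on the opposite strand. Nfib was followed by Gm11266 (0.88), an antisense transcript within Nfib at chr4:82508016-82547292, by Eln (0.88) and by G0s2 (0.82). Nfic was followed by Mkln1 (0.89), E430024I08Rik (0.89) and Neurl4 (0.88). Nfix was followed by St3gal4 (0.83), Nfib (0.81) and Zbtb16 (0.77), so that another of the 5 genes ranked among its closest 3.

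Over the 10 projection neuron subclusters and 9155 genes, Zbtb20 was followed by Sgpp1 (r = 0.97), Tmem266 (0.95) and Casp1 (0.95), and Nfix by 4921524J17Rik (0.96), Gtf2b (0.96) and Trp53inp2 (0.95), all 6 with their highest mean in ET4-like nuclei. Nfia was followed by Npas3 (0.89), Daam1 (0.85) and Homer2 (0.84), Nfib by Zpbp (0.87) and Gm11149 (0.84) among others, and Nfic by Ciao1 (0.94), Atf7ip (0.94) and Oaz2 (0.91). Among the 5 genes themselves the pairs changed with the set of groups. Nfib and Nfix had an r of 0.81 over clusters and of 0.11 over subclusters, Zbtb20 and Nfia 0.65 and -0.33, and Zbtb20 and Nfix 0.27 and 0.69.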

How the data were processed

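Single nuclei of 3 mice (1 group, 1 library each) were prepared with the 10x Chromium 3' v3 chemistry, and the deposited UMI counts were made by the authors with Cell Ranger 3.0.2 on mm10 (GRCm38), which counts sense reads. Nuclei with fewer than 1000 genes or over 5 percent mitochondrial UMIs had been removed by the authors; this percent and the authors' Seurat clusters stand in a deposited nucleus table, of which 6 further numeric columns were not used. The authors set a gate to exclude doublets at sorting, before the nuclei entered droplets. No doublet caller was run here, so that doublets formed in droplets were not assessed. The libraries held 58526996, 213891496 and 62929479 UMIs in 5845, 21105 and 4753 nuclei of mice 1, 2 and 3.

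Counts were summed per mouse and cluster, with at least 10 nuclei a library, and clusters were named from marker lists; these rebuilt names may not match those of the study. Sums were fitted with edgeR 4.0.16 in R 4.3.3 (TMM, filter on low counts, quasi-likelihood test, Benjamini-Hochberg adjustment over all genes), after a test of the scripts on simulated data. Calls needed an adjusted p below 0.05 and a log2 fold change beyond 1 in either direction. Shares used nuclei thinned to 2000 UMIs. Alternatives were DESeq2 1.42.0, other scalings, no filter, at least 1500 genes per nucleus, a mouse block, each mouse left out and groups left out. Libraries of a mouse come from the same animal and are paired: their deviations correlated at a mean r of 0.108, 0.0982 and 0.121 in the fits of types, classes and inhibitory clusters, against -0.0535, -0.0484 and -0.0590 between mice.

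The 5 genes and the gene lists were chosen with earlier results of these data known. Named were the 5 genes, the 3 genes of highest correlation with each, among genes with at least 20 CPM in a group, and from each list all called genes up to 4, otherwise the 2 with the largest and the 2 with the smallest fold change. The vascular-like cluster and unnamed cluster 21 entered no test, and subclusters 2, 8 and 9 entered the main tests only within the projection neuron class. Values of 2 genes that this rule names are not reported here.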

Additional observations from a re-analysis of the deposited data

How the results depend on the processing

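Of 130 single results, 57 of the 70 that were called kept their call under all alternatives run, and 1288 of 1359 alternative values kept direction and side of the threshold. Leaving out each mouse gave 13 to 19 calls among the types (15 with all mice), 20 to 27 among inhibitory clusters (24) and 14 to 15 among glia (15). With the mouse as a replicate block, 128 of 130 results kept their call, and the counts were 15 for types, 14 for glia, 4 for projection against inhibitory neurons and 2 for mitral against tufted types. The block lost Nfic in ensheathing-glia-like nuclei (0.98) and gained Nfia in cluster 1 (-1.04). Without inhibitory clusters 7, 8, 10 and 12, an alternative added after the data had been seen, projection against inhibitory neurons had 2 calls in place of 4, and Nfia there turned from -1.61 to 0.54. The cause was not tested.

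The other reversals were of values that were not called. Nfic in T1-like nuclei was at -0.0058 with DESeq2, -0.11 with library size scaling, -0.00058 with RLE, -0.024 with all subclusters and -0.098 to 0.11 when each mouse was left out. Nfix in M3-like nuclei was at 0.12 with library size scaling and -0.26 to 0.095 by mouse left out. Zbtb20 in microglia-like nuclei was at 0.092 with DESeq2, 0.38 with library size scaling, 0.070 with RLE and -0.18 to 0.13 by mouse left out. Zbtb20 was at -0.025 in oligodendrocyte-like nuclei of at least 1500 genes, at 0.055 in cluster 0 and 0.037 in cluster 1 without a filter, and in cluster 1 at 0.028 without clusters 10 and 12 and -0.097 to 0.063 by mouse left out. Leaving out each mouse, Nfic ranged from -0.17 to 0.32 in precursor-like, from -0.021 to 0.25 in ET4-like, from -0.18 to 0.032 for M2 and from -0.086 to 0.62 for M3. Nfia in mitral against tufted types ranged from -0.27 to 0.14, and Nfib and Nfix in microglia-like nuclei from -0.53 to 0.54 and from -0.69 to 1.03.

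With Malat1 and mitochondrial genes left out of the total, Zbtb20 in ET4-like nuclei was at 4009.5 CPM. The following shares of nuclei with a UMI rose with depth: unthinned they were 99.2% for Zbtb20 in cluster 4, 96.7% for Nfia in cluster 9, 91.9% for Nfib in cluster 7, 27.0% for Nfic in cluster 18 and 39.9% for Nfix in cluster 7, and at 4000 UMIs the latter 4 were 93.2%, 89.1%, 21.9% and 34.5%. Thinning to 4000 UMIs left out 3002 nuclei. From 2000 to 4000 UMIs, Nfia fell from 2.94% to 2.18% in cluster 1 and from 55.8% to 45.7% in microglia-like nuclei. DESeq2 gave no adjusted p for Nfix between types, and microglia-like nuclei of at least 1500 genes were too few to fit. Low counts limit Nfix in the mitral types, with 49, 60 and 18 UMIs in M1-, M2- and M3-like nuclei. The small library limits all values of M1-like nuclei of mouse 1.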

Other observations

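The vascular-like cluster 18, which entered no test, had high levels of all 5 genes. Its means were 2570.2 CPM for Zbtb20, 895 CPM for Nfia, 672 CPM for Nfib, 76.0 CPM for Nfic and 68.2 CPM for Nfix. Its astrocyte markers summed to 701 to 840 CPM. The unnamed subcluster 8 had Nfia at 53.0 ± 15.8 CPM and Nfib at 49.2 ± 22.1 CPM (SD, n = 3), from 22, 51 and 53 nuclei. The periglomerular-like subcluster 9 had Zbtb20 at 1123 ± 262 CPM, from 9, 72 and 8 nuclei.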
